A study of Mus musculus with 12 samples.

Results

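The 200 antisense RNA genes with the highest expression in U2OS cells, a human osteosarcoma line, were examined across 12 RNA-Seq libraries. They were taken from the 5583 genes of the antisense biotype among 58735 genes listed, and were chosen by their mean FPKM (fragments per kilobase of gene length and per unit of library size) over the 12 libraries. Before ranking, 5 small nucleolar RNA host genes and the well-studied ZFAS1, KCNQ1OT1 and NKILA, 3 genes, were left out, which kept 5575. Because the mean FPKM chose the genes, their levels are a description and are not tested. Of these genes 105 carry a symbol, and the other 95 are named here by their Ensembl identifiers.

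The libraries form 4 groups of 3. The first group is labelled as blank U2OS cells, without an siRNA or an overexpression construct being named. Whether these cells were mock-transfected is not given in the sources used here. The siSRSF1-2 and siSRSF1-3 cells received 1 of 2 different siRNAs against SRSF1, a splicing factor of the SR protein family. The OE-LINC01134 cells overexpressed LINC01134, a long intergenic non-coding RNA, and all groups are the same line. No library with a control siRNA or an empty vector was used here, so an effect of transfection cannot be told apart from an effect of the target. The sources call the libraries biological or experimental repeats, with differing numbers of them, and do not say whether the 3 libraries of a group came from separate cultures. The p-values measure the spread between these libraries, which may be technical.

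An antisense gene is transcribed from the strand opposite to another gene, often from the same promoter region in the other direction, from within its introns, or across its end. Such RNAs are long non-coding RNAs. Single cases are known to act on the neighbouring coding gene through chromatin, transcription or RNA pairing, and many are degraded soon after synthesis by the nuclear exosome. Whether the counting used the strand of a read is not given in the sources used here. Without strand, reads of an antisense gene and of the coding gene across from it cannot be told apart where their exons overlap.

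Between 26237763 and 32954539 reads per library could be recovered, and the 200 antisense genes held 0.250% to 0.407% of them. SRSF1 was at 35.9, 19.8 and 20.5 FPKM in blank cells, at 7.09, 7.46 and 7.41 with siSRSF1-2 and at 3.33, 6.81 and 7.90 with siSRSF1-3. Its log2 fold change of -1.72 with siSRSF1-2 passed the threshold used below for called genes. The change of -2.09 with siSRSF1-3 did not, and reached a limma p under 0.05 only before adjustment. LINC01134 was at 0.497 to 0.791 FPKM in blank cells and at 878 to 1279 in OE-LINC01134 cells. Of the osteoblast lineage markers, RUNX2, ALPL and COL1A1 averaged 0.5 FPKM or more and SP7 and BGLAP did not, and ALPL fell in OE-LINC01134 cells (log2 fold change -1.91, limma adjusted p = 0.0402). Of 5 markers of other cell types, PTPRC, PECAM1 and MYOD1 were below 0.5 on average, while the epithelial markers EPCAM and CDH1 averaged 1.51 and 0.599. Several libraries stood apart from their group. Between replicates, chi-square per degree of freedom over genes was 2.60 to 3.20 within siSRSF1-2, 2.75 for blank replicates 2 and 3 and 2.13 for OE-LINC01134 replicates 1 and 3, but 63.2 to 68.6 for pairs with blank replicate 1 or OE-LINC01134 replicate 2 and 92.8 to 316 within siSRSF1-3. Over the 200 antisense genes, log2 FPKM of blank replicate 1 correlated most with OE-LINC01134 replicate 2 (Pearson's r = 0.88, against 0.78 with each other blank library). The siSRSF1-3 replicate 3 correlated at 0.91 to 0.92 with the siSRSF1-2 libraries, and at 0.56 and 0.78 with the other siSRSF1-3 libraries. These correlations are across genes and are descriptions.

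The mean FPKM of the 200 genes ran from 84.2 down to 3.45, with a median of 6.11. There were 53 genes over 10 FPKM and 5 over 50, and the 10 highest held 25.7% of the summed mean FPKM of the set. The whole set held 52.5% of the FPKM of all antisense genes, of which 1040 were listed at 0 in every library. At the lower edge, ENSG00000248367 and LOC101928433 stood at 3.53 and 3.449, with TSPEAR-AS2 between them, and the first genes left out, NOP14-AS1, FOXN3-AS1 and ENSG00000254461, at 3.448, 3.44 and 3.42. The gene length had a median of 907.5 bases, against 775 for the 1022 other antisense genes with a mean of at least 0.5 FPKM. The median read count of a gene per library ranged from 19.5 to 9539.5 over the set, 7 genes had under 10 reads in some library, and none was at 0 in any. All 200 passed the filter of 0.5 FPKM used for the tests. The siSRSF1-3 group had the highest mean for 111 of the genes, OE-LINC01134 for 46, siSRSF1-2 for 26 and blank for 17, and 39 genes would fall under the lowest mean of the set without the group in which they were highest.

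The most abundant antisense gene, ENSG00000251257 (chromosome 5, 38460925 to 38468339), meets EGFLAM, an extracellular matrix protein gene, end to end. It was at 25.02, 31.3 and 32.5 FPKM in blank cells, at 42.8, 35.3 and 38.6 with siSRSF1-2, at 387, 186 and 94.6 with siSRSF1-3 and at 57.8, 24.5 and 55.7 in OE-LINC01134 cells. All 3 siSRSF1-3 libraries lay above every other library, but they also lay far from each other. The log2 fold change of 2.68 (SE 0.49) did not pass the threshold (limma, adjusted p = 0.0512). EGFLAM itself stayed between 2.52 and 3.85 FPKM in all libraries. The second, ENSG00000265415 (chromosome 17, 59202677 to 59203829), lies within PRR11, a cell cycle gene. It was at 81.3, 65.4 and 70.5 FPKM in blank cells and 103, 94.8 and 100.3 in OE-LINC01134 cells, but at 10.8, 35.8 and 65.2 with siSRSF1-3. The highest siSRSF1-3 library was just below the lowest blank library, and the change of -1.29 (SE 0.60) missed the threshold (limma, adjusted p = 0.196).

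ENSG00000264067 and ENSG00000273388 lie on chromosome 17 across from MYH13, which codes for a myosin heavy chain of eye muscles. The former was at 27.4 to 34.6 FPKM in blank cells and at 242, 104 and 57.2 with siSRSF1-3, and the latter at 39.7 to 50.2 in blank cells, 67.7 to 71.8 with siSRSF1-2 and 22.7, 69.3 and 77.7 with siSRSF1-3. Within siSRSF1-3, replicate 1 was therefore the highest library for ENSG00000264067 and the lowest for its neighbour. DLGAP1-AS2, across from the synaptic scaffold gene DLGAP1, was at 29.7 FPKM in blank replicate 1 and at 71.6 and 72.3 in the other blank libraries, a spread that covered the means of all 3 treated groups, from 49.8 to 71.3. ENSG00000272405, inside the brevican gene BCAN, was among the steadiest, with 25.2 to 31.8 FPKM in blank cells and 37.5 to 47.9 in the 9 treated libraries. The remaining genes of the first 10, ENSG00000232533, LBX2-AS1, ENSG00000258623 and ENSG00000237596, are described with the comparisons.

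**Figure D1:**
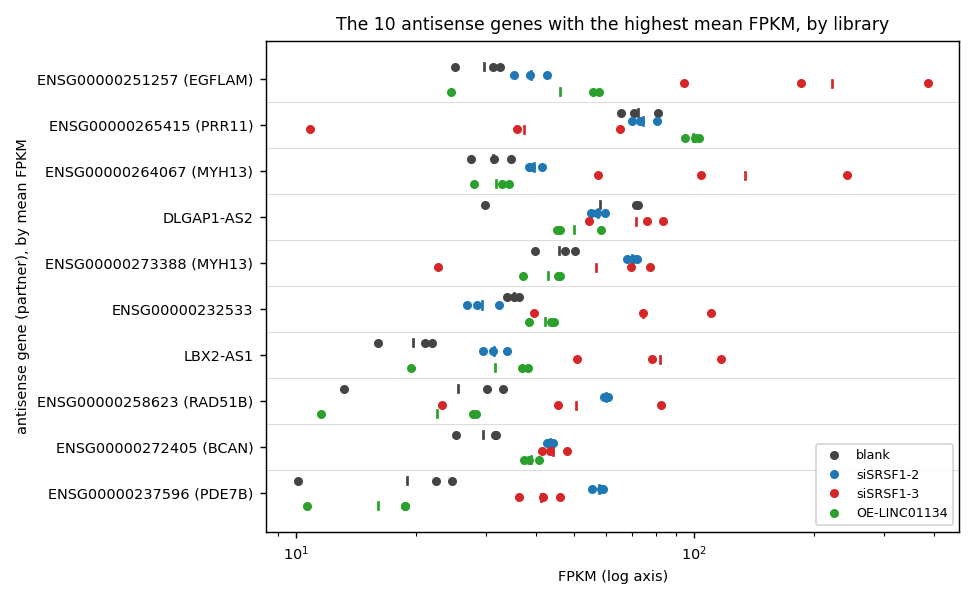
FPKM (log axis) of the 10 antisense genes with the highest mean, from the top down, with a point for each library and a short bar for each group's mean. The siSRSF1-3 points run from 94.6 to 387 for ENSG00000251257, and they lie above every blank point for ENSG00000251257, ENSG00000264067, ENSG00000232533, LBX2-AS1, ENSG00000272405 and ENSG00000237596.

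To set each antisense gene beside the coding gene it faces, the protein-coding gene on the other strand with the longest overlap was taken as its partner. This gave 166 of the 200 genes a partner (83%, against 87.9% of all antisense genes), with 159 different partners. The antisense gene lay inside the partner in 67 pairs, head to head with it in 52, tail to tail in 34 and around it in 13. Head-to-head pairs made up 31.3% of the pairs, compared with 17.7% over all antisense genes and 26.2% over the other antisense genes that passed the filter, while pairs inside the coding gene made up 40.4%, 62.0% and 49.2%. A coding gene on the opposite strand began within 1 kb of the antisense start for 84 of the 200 (42%), against 20.4% of all antisense genes and 33.7% of the others past the filter. That was also true of 20 of the 34 genes with no overlapping partner, such as OTUD6B-AS1 and MAFG-DT, which start 7 and 115 bases from a coding gene. The overlaps had a median length of 2172.5 bases, and 541 bases in head-to-head pairs.

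In blank cells the antisense gene had the higher FPKM in 83 of 166 pairs. It exceeded the partner by more than 10 times in 31 pairs and fell short of it by more than 10 times in 12. The levels of the antisense genes and their partners had a correlation of -0.10 on the log2 scale (rank correlation -0.05), given as a description across 166 pairs that share libraries. For head-to-head pairs the partner's median was 7.65 FPKM and that of the antisense gene 4.94, whereas for the 13 pairs with the coding gene inside the antisense span the medians were 0.107 and 4.66. The largest excess was that of DLGAP1-AS2, at 57.9 ± 24.4 FPKM (SD, n = 3) in blank cells beside 0.347 ± 0.163 for DLGAP1. ENSG00000273388 had 45.8 ± 5.43 beside 4.95 ± 0.370 for MYH13, and ENSG00000272405 had 29.5 ± 3.79 beside 3.21 ± 0.328 for BCAN. PRR11 was itself well expressed, at 41.9 ± 6.45, under ENSG00000265415 at 72.4 ± 8.13. At the other end, CEBPB-AS1 had 2.45 ± 0.840 FPKM beside 126 ± 20.6 for CEBPB, a transcription factor gene, and VIM-AS1 had 7.88 ± 0.327 beside 207 ± 33.2 for VIM, which codes for vimentin.

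**Figure D2:**
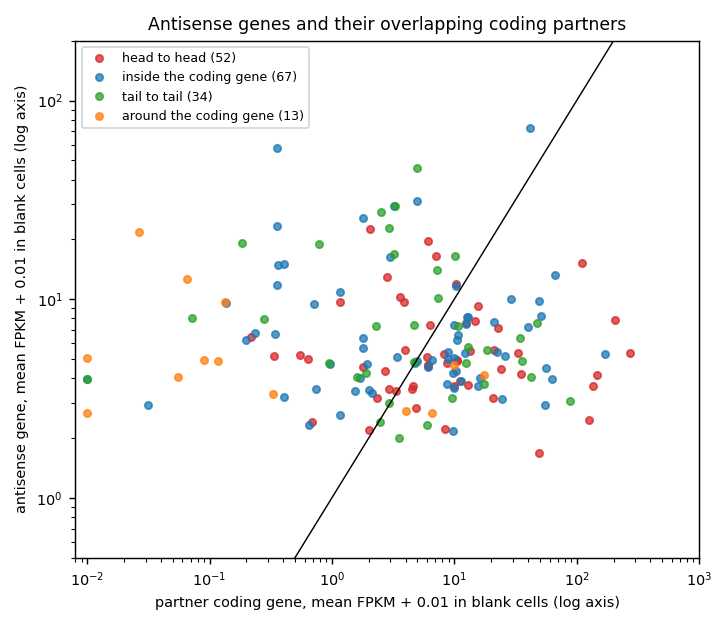
Mean FPKM + 0.01 in blank cells of each antisense gene against that of its coding partner (both log axes), coloured by the arrangement of the pair, with the line of equal levels. Points lie on both sides of the line, 83 of 166 above it, and the 13 pairs with the coding gene inside the antisense span lie mostly at partner levels under 1 FPKM.

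With siSRSF1-2, 12 of the 200 antisense genes rose against blank and 2 fell, at a limma adjusted p under 0.05 and a log2 fold change over 1 in size. Over all 17538 genes tested, 2.22% rose and 2.73% fell by this rule. Of all 1222 antisense genes past the filter, which include the 200, 50 rose and 19 fell. Before adjustment, 14 higher and 3 lower antisense genes reached a p under 0.05 and the fold, beside 3.06% and 3.43% of all genes. The median log2 fold change of the antisense genes was 0.03 and that of all genes 0.02. The libraries of the 2 groups did not overlap for 60 antisense genes that were higher and 37 that were lower, where the background was 25.3% and 24.2% of all genes. The 3 siSRSF1-2 libraries lay close together, and so did blank replicates 2 and 3. Their chi-square per degree of freedom was 2.60 to 3.20 and 2.75, where counting noise alone would give about 1. Counting each of these sets once leaves 2 blank values against 1, a design in which limma called 0 of all 17538 genes, so it has no bearing on single calls. In 1 fit over all 4 groups, 4 antisense genes were called, beside 0.764% of all genes higher and 1.03% lower.

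The largest rise past the threshold was that of ENSG00000237596 (chromosome 6, 135991936 to 136225751), a gene of 6585 bases across from PDE7B, which codes for a phosphodiesterase of cyclic AMP. It was at 10.1, 22.4 and 24.6 FPKM in blank cells and at 55.3, 58.3 and 59.1 with siSRSF1-2, with the lowest siSRSF1-2 library above the highest blank library. The log2 fold change was 1.69 (SE 0.33, limma adjusted p = 0.0152). PDE7B rose with it, from 0.449, 1.05 and 0.848 FPKM to 2.04, 2.13 and 2.59, by 1.48 (limma adjusted p = 0.0153). ENSG00000236234, inside the lysosomal adaptor gene PLEKHM1, had closely placed replicates, at 2.16, 2.20 and 2.11 FPKM in blank cells and 7.24, 7.26 and 6.75 with siSRSF1-2. It rose by 1.67 (SE 0.07, limma adjusted p = 5.1e-04), and PLEKHM1 rose by 1.24, from a mean of 9.77 to 23.2 FPKM. These were the 2 cases, among 11 called genes with a tested partner, in which the partner passed the threshold in the same direction.

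For the other 9 of these 11 the partner moved by less than 2-fold, and 3 more called genes (TM4SF19-AS1, LOC100049716 and ENSG00000273132) had a partner below the filter. ENSG00000271781, inside TPPP, a gene for a microtubule-bundling protein, went from 4.75, 3.69 and 3.52 FPKM to 10.8, 10.6 and 10.2, a rise of 1.39 (SE 0.12, limma adjusted p = 0.00181), with TPPP at 1.68 ± 0.228 in blank cells and 2.98 ± 0.119 with siSRSF1-2. ENSG00000258623, inside the recombination gene RAD51B and among the first 10 by mean FPKM, went from 13.2, 30.1 and 33.1 FPKM to 60.6, 59.3 and 60.4, or 1.34 (SE 0.34, limma adjusted p = 0.034). In both genes the siSRSF1-2 libraries lay close together above all blank libraries. TM4SF19-AS1 rose from 6.09, 11.5 and 10.99 to 21.1, 22.2 and 21.0, by 1.22 (SE 0.24, limma adjusted p = 0.0159), across from a read-through gene that stayed under 0.5 FPKM on average. The rises of ENSG00000227959, ASMTL-AS1, ENSG00000263847, LOC100049716, LOC105371414, ENSG00000265205 and CEBPB-AS1 were between 1.03 and 1.20. Their partners include EPHA2, a receptor tyrosine kinase gene, NDUFV2, which codes for a subunit of respiratory complex I, and SUPT6H, a transcription elongation factor gene. Of these, CEBPB-AS1 and LOC105371414 kept the call in 8 and 6 of the 17 other settings tried and ENSG00000258623 in 8.

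ENSG00000273132, inside LRP11, a gene of the LDL receptor-related family, fell with siSRSF1-2, from 13.3, 15.8 and 16.1 FPKM to 7.59, 6.62 and 6.78, a change of -1.09 (SE 0.10, limma adjusted p = 0.00206). HOXB-AS4, head to head with the homeobox gene HOXB7, fell from 5.61, 6.47 and 4.52 to 2.71, 2.83 and 2.28, by -1.05 (SE 0.16, limma adjusted p = 0.00675). Neither group of libraries overlapped with blank. HOXB7 was at 27.8, 18.6 and 16.6 FPKM in blank cells and 19.6, 18.2 and 18.4 with siSRSF1-2, which overlap.

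**Figure D3:**
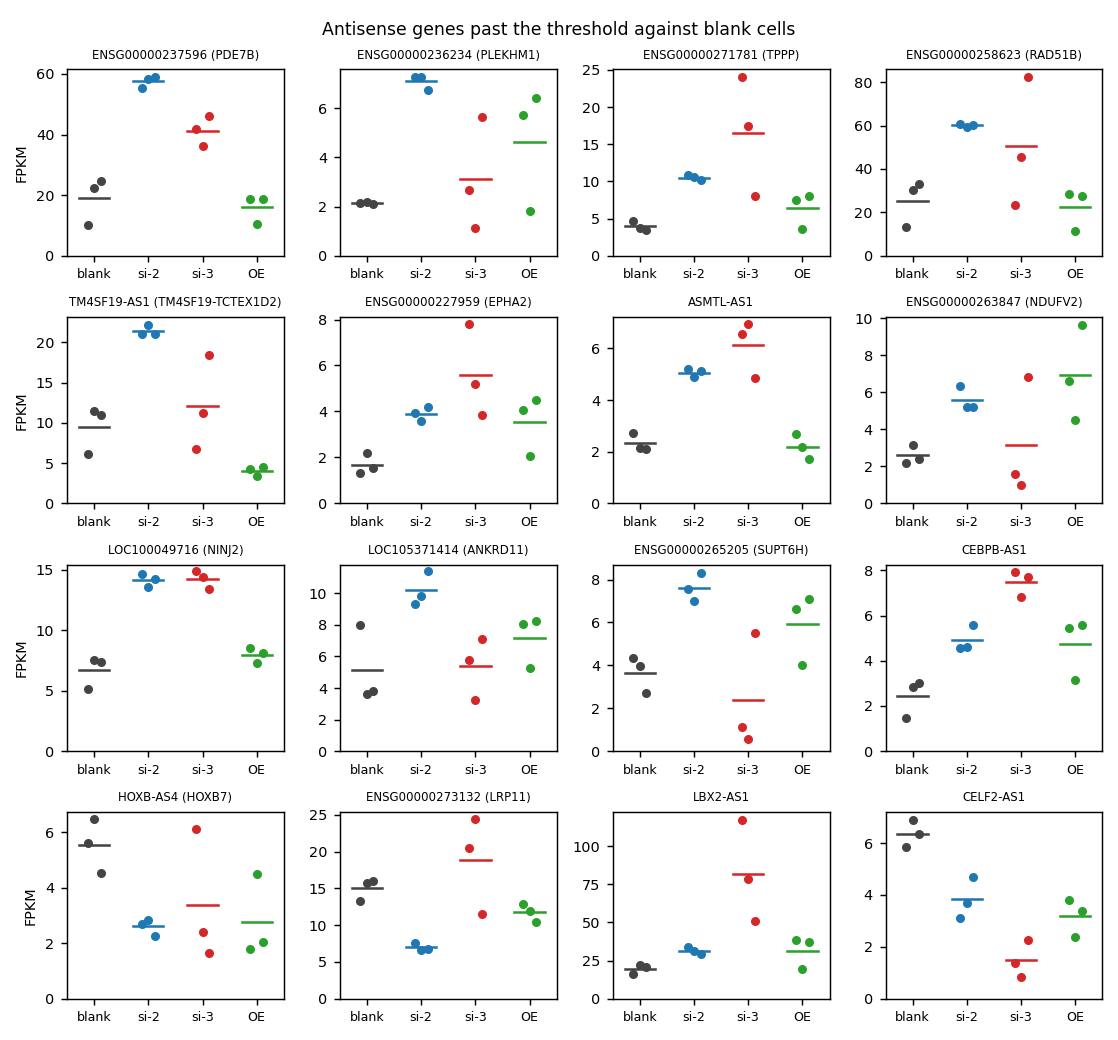
FPKM by library (points) and group mean (bars), on axes from 0, for the 16 antisense genes past the threshold with siSRSF1-2 (si-2) or siSRSF1-3 (si-3) against blank, with the partner in brackets where the name does not give it and OE-LINC01134 as OE. The siSRSF1-2 points sit close together, while siSRSF1-3 points of the same genes are often spread over several fold.

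With siSRSF1-3, the antisense genes were higher as a set but few passed the test. Their median log2 fold change was 0.46, against -0.01 over all genes and 0.12 over all 1222 antisense genes past the filter, and 149 of 200 were above 0. The libraries did not overlap for 68 antisense genes that were higher and 13 that were lower, where the background was 19.2% and 18% of all genes. Only 2 genes rose and 1 fell at an adjusted p under 0.05, beside a background of 0.331% and 0.929%, while 47 and 9 reached the fold with a limma p under 0.05 before adjustment, where the background was 7.57% and 7.24%. The siSRSF1-3 libraries entered the mean that chose the genes. In a ranking over the other 9 libraries, added with the data already known, 182 of the 200 genes were kept, the median was 0.29 and its distance to all genes 0.30.

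The shift differed between the 3 siSRSF1-3 libraries. Against the mean of blank, the median antisense gene stood at 0.75 in replicate 1, 0.51 in replicate 2 and 0.27 in replicate 3, and the median coefficient of variation within siSRSF1-3 was 41.2%, against 18.9% in blank, 8.16% in siSRSF1-2 and 17.9% in OE-LINC01134. The summed FPKM of all genes also differed, at 611084, 410612 and 302504 in siSRSF1-3 replicates 1 to 3 and between 281051 and 324607 in the other libraries. Rescaled to each library's own reads, the median of the antisense genes was 0.20 and that of all genes -0.26, and rescaled to the same summed FPKM the medians were 0.02 and -0.43. The distance between the medians, which the choice of the genes favours, was 0.47 as deposited and 0.46 and 0.45 after these rescalings. By length, the medians were 0.57, 0.60, 0.69 and 0.29 for antisense genes under 500, 500 to 1000, 1000 to 2000 and over 2000 bases, and -0.18, 0.13, 0.33 and -0.05 for all genes. Protein-coding genes of the same classes had medians of 0.41, 0.77, 0.55 and -0.06, so the short ones stood as high as the antisense genes or near them. The part of length, of scaling and of the single libraries in the shift was not tested.

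**Figure D4:**
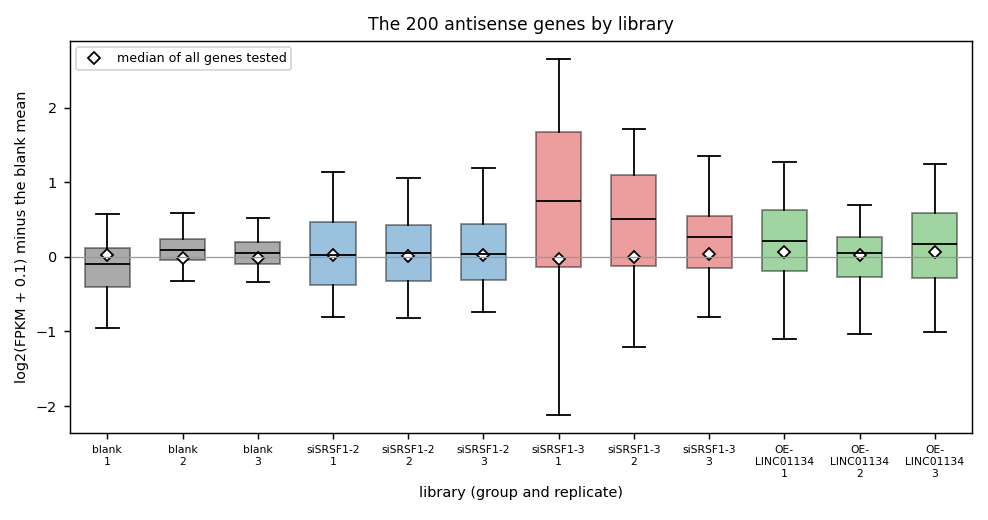
Log2(FPKM + 0.1) of the 200 antisense genes in each library minus the mean of the 3 blank libraries, as boxes (quartiles) with whiskers from the 5th to the 95th percentile and diamonds for the median of all genes tested. The siSRSF1-3 medians of 0.75, 0.51 and 0.27 lie above those of all genes, which are within 0.08 of 0 in every library.

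LBX2-AS1 (chromosome 2, 74502595 to 74504678), head to head with the homeobox gene LBX2 and known from several cancers, was at 16.1, 21.98 and 21.1 FPKM in blank cells and 117, 78.4 and 50.6 with siSRSF1-3. It rose by 1.98 (SE 0.33, limma adjusted p = 0.0468), with no overlap. It was also higher with siSRSF1-2, at 33.8, 31.2 and 29.5 FPKM, a change of 0.68 (limma adjusted p = 0.0144) under the fold required. LBX2 was at 6.05 to 6.19 FPKM in blank cells and at 23.7, 14.6 and 7.92 with siSRSF1-3, where it was at 1.19 on the log2 scale and did not pass (limma adjusted p = 0.113).

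ASMTL-AS1, tail to tail with the methyltransferase-like gene ASMTL, passed against blank with both siRNAs. It was at 2.73, 2.13 and 2.11 FPKM in blank cells, at 5.19, 4.89 and 5.11 with siSRSF1-2 and at 6.57, 6.95 and 4.85 with siSRSF1-3, with log2 fold changes of 1.10 (SE 0.12, limma adjusted p = 0.00293) and 1.35 (SE 0.22, limma adjusted p = 0.0456). The 2 comparisons share the blank libraries. ASMTL stayed between 5.28 and 8.02 FPKM in these 9 libraries. CELF2-AS1, inside CELF2, the gene of an RNA-binding splicing regulator, fell with siSRSF1-3 from 5.84, 6.89 and 6.37 to 1.38, 0.829 and 2.27, by -2.12 (SE 0.34, limma adjusted p = 0.0456). Its siSRSF1-2 and OE-LINC01134 libraries, at 3.10 to 4.70 and 2.39 to 3.80 FPKM, also lay below all blank libraries without passing both thresholds. Without any single blank library, or without siSRSF1-3 replicate 1 or 2, none of the 3 calls of siSRSF1-3 against blank remained, and without siSRSF1-3 replicate 3 the count was 80 (63 higher and 17 lower), beside 12.5% of all genes higher and 11.4% lower.

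Compared directly, siSRSF1-3 and siSRSF1-2 differed at 0 of the 200 antisense genes by limma, beside 0.0342% of all genes higher and 0.0513% lower. Before adjustment, 50 higher and 9 lower antisense genes reached a p under 0.05 with the fold required, beside 9.01% and 7.42% of all genes. The median difference was 0.41 as deposited, 0.12 with own read totals and -0.15 with the same sum in every library. Over all genes the medians were -0.02, -0.31 and -0.57, so the scaling moved all genes and set the sign of the median. The distance to all genes, which the choice of the genes favours, was 0.43, 0.43 and 0.42. In the ranking over the 9 other libraries the median was 0.22 and the distance 0.24. The antisense genes held 0.650% of the summed FPKM with siSRSF1-2 and 0.657% with siSRSF1-3. The libraries did not overlap for 83 higher and 30 lower antisense genes, where the background was 27% and 27.6% of all genes. Without siSRSF1-3 replicate 3, which lay near the siSRSF1-2 libraries, 100 antisense genes passed, beside 16.01% of all genes higher and 14.5% lower. HOTAIRM1 and ENSG00000251257 were among the genes with no overlap between the 2 siRNAs, at 7.76 to 8.22 and 35.3 to 42.8 FPKM with siSRSF1-2 and 14.1 to 31.9 and 94.6 to 387 with siSRSF1-3.

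With OE-LINC01134, limma called 0 of the 200 antisense genes, beside 0.257% of all genes higher and 0.593% lower. Before adjustment, 7 higher and 9 lower genes reached a p under 0.05 and the fold required, beside 2.45% and 5% of all genes. The median log2 fold change was 0.17, against 0.05 over all genes, and 38 and 24 antisense genes did not overlap with blank in the 2 directions, where the background was 16.8% and 13.8%. The count rose when OE-LINC01134 replicate 2 or blank replicate 1 was left out. Without the former 17 antisense genes passed, beside 2.91% of all genes higher and 5.87% lower, and without the latter 15, beside 1.81% and 3.68%. PPP1R26-AS1 shows the pattern, at 2.90, 10.6 and 9.64 FPKM in blank cells and 0.773, 2.70 and 0.765 in OE-LINC01134 cells, with the closest values in blank replicate 1 and OE-LINC01134 replicate 2. Its change of -2.40 (SE 0.64) had a limma adjusted p of 0.0898.

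To ask whether an antisense gene moved by another amount than its partner, the log2 ratio of antisense to partner FPKM was fitted over 887 pairs of the whole table, of which 138 belong to the set. With siSRSF1-2, 5 of the 138 ratios rose and 6 fell, beside 2.82% and 3.72% of all pairs, and before adjustment 8 and 6 reached a p under 0.05 and a change over 1, beside 5.3% and 5.41%. The largest fall was that of LOC100506476, head to head with ELMSAN1, a gene of a histone deacetylase complex. The antisense gene was at 2.26, 4.65 and 4.04 FPKM in blank cells and 1.47, 1.67 and 2.05 with siSRSF1-2, and ELMSAN1 at 5.02, 12.99 and 11.9 and then 18.1, 18.2 and 19.4. The 2 genes thus lay on opposite sides of their blank libraries, and the ratio fell by -1.99 (SE 0.19, limma adjusted p = 0.00156).

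TCERG1L-AS1 and ENSG00000276900 had ratios that fell by -1.53 (SE 0.16) and -1.36 (SE 0.15), each with a limma adjusted p of 0.00156. ENSG00000276900 was itself at 23.1, 21.4 and 22.8 FPKM in blank cells and 13.2, 12.8 and 13.8 with siSRSF1-2, next to AMN1 at 1.75, 2.16 and 2.23 and then 3.13, 3.27 and 3.08. In the other direction, the ratio of ENSG00000227959 to EPHA2 rose by 1.30 (SE 0.22, limma adjusted p = 0.00868). That antisense gene went from 1.32, 2.18 and 1.52 FPKM to 3.93, 3.60 and 4.21 while EPHA2 was at 48.2 to 50.6 and 45.8 to 46.9. The ratio of ASMTL-AS1 rose by 1.21 (SE 0.18, limma adjusted p = 0.00544) and that of ENSG00000242798, around CNPY4, by 1.17 (SE 0.20, limma adjusted p = 0.00868). For VIM-AS1 the ratio rose by 1.03 (SE 0.18, limma adjusted p = 0.00886) with the antisense gene at 7.51 to 8.07 and then 5.91 to 6.37 FPKM, while VIM went from 244, 181 and 195 to 79.1, 79.1 and 77.3. VIM-AS1 itself, at -0.36 on the log2 scale, did not reach the fold.

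With OE-LINC01134, 2 ratios rose and 2 fell, beside 0.789% of all pairs in each direction, and before adjustment 7 and 5 reached a p under 0.05 and a change over 1, beside 4.51% and 3.38%. TCERG1L-AS1, inside the transcription elongation regulator-like gene TCERG1L, had a ratio that rose by 1.72 (SE 0.29, limma adjusted p = 0.0233), the direction opposite to that with siSRSF1-2. It was at 6.504, 11.6 and 10.2 FPKM in blank cells, 8.26, 6.17 and 8.005 with siSRSF1-2 and 34.1, 13.9 and 31.8 in OE-LINC01134 cells. The ratios of PPP1R26-AS1 and HOXB-AS4 fell by -2.11 (SE 0.42, limma adjusted p = 0.0458) and -1.48 (SE 0.30, limma adjusted p = 0.0458). All 4 calls were lost without blank replicate 2 or 3 and without OE-LINC01134 replicate 1 or 3. Without OE-LINC01134 replicate 2 the count was 23, for which the share of all pairs is not given here. With siSRSF1-3 limma called 0 of 138 ratios against blank, beside 0% of all pairs, and 37 higher and 10 lower ratios reached a p under 0.05 and a change over 1 before adjustment, beside 14.1% and 11.8% of all pairs. Against siSRSF1-2 it also called 0, beside 0% of all pairs, and 41 and 10 did so before adjustment, beside 17.2% and 15.9%.

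**Figure D5:**
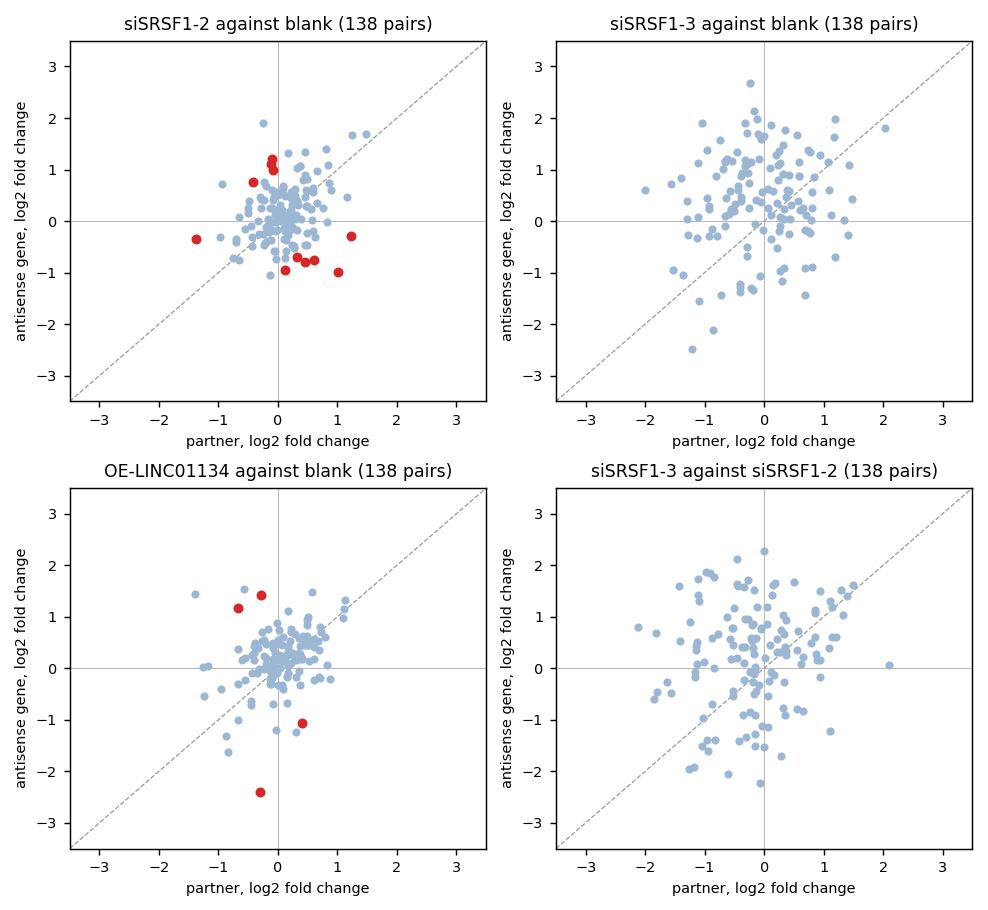
Log2 fold change of the antisense gene against that of its coding partner for 138 pairs in each of the 4 comparisons, with the dashed line of equal change and pairs whose ratio passed the threshold in red. Points scatter widely around the line, and 84, 70, 90 and 75 of the 138 pairs lie in the quadrants of equal direction for siSRSF1-2, siSRSF1-3 and OE-LINC01134 against blank and for siSRSF1-3 against siSRSF1-2.

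Over the pairs, the log2 fold changes of antisense gene and partner had the same sign in 84 of 138 with siSRSF1-2 (Pearson's r = 0.26), in 70 with siSRSF1-3 (r = 0.14) and in 90 with OE-LINC01134 (r = 0.28). Over the other 749 antisense pairs the signs were the same in 57.1%, 51.8% and 61.4% (r = 0.27, 0.05 and 0.36), against 60.9%, 50.7% and 65.2% of the 138. These are descriptions across pairs from the same libraries. Head-to-head pairs had the same sign in 32, 26 and 38 of 49 in these comparisons, with r = 0.18, 0.24 and 0.51. Pairs inside the coding gene had r = 0.32, 0.09 and 0.25 over 55 pairs, and tail-to-tail pairs 0.35, 0.03 and 0.08 over 30. The median change of the ratio with siSRSF1-3 was 0.56 over the 138 pairs and 0.06 over all 887, a gap that the choice by antisense FPKM favours. It was 0.39 over 140 pairs in the ranking without siSRSF1-3.

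In all, 6 coding genes each faced more than 1 of the antisense genes (13 genes). Across from DLGAP1 lay DLGAP1-AS2, DLGAP1-AS1 and ENSG00000266401. DLGAP1-AS1 was at 22.01 to 24.3 FPKM in blank cells and 20.8 to 22.2 with siSRSF1-2, while ENSG00000266401 was at 8.04, 13.2 and 13.9 and then 6.68, 6.54 and 6.43, a change of -0.79 (limma adjusted p = 0.0385) under the fold required. Around LBX2, LBX2-AS1 was higher with siSRSF1-3 in all libraries, and ENSG00000272183, inside the gene, was at 3.82 to 5.18 FPKM in blank cells and 4.56, 1.21 and 3.76 with siSRSF1-3. The siSRSF1-3 libraries of ENSG00000272183 overlapped with blank.

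Of 17 antisense RNAs of the HOX clusters, loci of homeobox transcription factors that set position along the body axis, 10 passed the filter and 3 were in the set. With siSRSF1-2, 1 of the 10 (HOXB-AS4) fell and 0 rose, beside 2.73% and 2.22% of all genes. In the other comparisons limma called 0. Before adjustment, 5 higher and 1 lower reached a p under 0.05 and the fold with siSRSF1-3, beside 7.57% and 7.24% of all genes. With OE-LINC01134 0 and 2 did so (2.45% and 5%), and between the siRNAs 5 and 1 (9.01% and 7.42%). HOTAIRM1 was at 7.94, 11.7 and 10.9 FPKM in blank cells, 8.22, 7.76 and 8.20 with siSRSF1-2, 31.9, 22.8 and 14.1 with siSRSF1-3 and 12.4, 6.41 and 12.3 in OE-LINC01134 cells. Its siSRSF1-3 libraries lay above all the others, and the change of 1.10 (SE 0.33) against blank did not pass (limma adjusted p = 0.103). HOXC-AS1, inside HOXC9, was at 28.6, 9.90 and 5.09 FPKM with siSRSF1-3 and between 3.41 and 4.98 in the other 9 libraries.

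Of 59 genes listed for their part in cancer, most but not all named as antisense RNAs, 34 passed the filter and 9 were in the set. LBX2-AS1 passed the threshold with siSRSF1-3, beside 0.331% of all genes higher, and limma called 0 of the 34 in the other comparisons. Before adjustment, 5 higher and 1 lower reached a p under 0.05 and the fold with siSRSF1-3, beside 7.57% and 7.24% of all genes. With siSRSF1-2 0 did so (3.06% and 3.43%), with OE-LINC01134 2 lower (2.45% and 5%) and between the siRNAs 7 higher and 1 lower (9.01% and 7.42%). Among the 9 in the set, FGD5-AS1 was the most abundant after LBX2-AS1. It was at 31.5, 25.7 and 25.5 FPKM in blank cells and 31.1 to 33.0 with siSRSF1-2. It was at 13.02, 15.9 and 23.9 with siSRSF1-3 and 32.5 to 34.9 in OE-LINC01134 cells. Only siSRSF1-3 thus lay below blank, at -0.68 (limma adjusted p = 0.145). ARRDC1-AS1 was at 12.7 to 15.6 FPKM in blank cells and 34.7, 28.5 and 17.2 with siSRSF1-3. PSMA3-AS1 was higher in all 3 treated groups without overlap, at 7.26 to 7.93 FPKM in blank cells and at least 11.7, 10.6 and 10.6 with siSRSF1-2, siSRSF1-3 and OE-LINC01134, by 0.69, 0.56 and 0.74 on the log2 scale, of which the first had a limma adjusted p of 0.00239 below the fold required. THUMPD3-AS1, THAP9-AS1 and ZEB1-AS1 had treated libraries that overlapped with blank in all 3 treated groups. PCAT6 was at 2.64, 7.43 and 5.98 FPKM in blank cells and 16.96, 7.69 and 4.54 with siSRSF1-3, and ASB16-AS1 between 4.48 and 9.09 in all libraries.

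Genes that act on antisense transcripts were examined as a further list. The nuclear exosome with its NEXT and PAXT adaptors degrades nuclear RNA, the Integrator complex ends the transcription of many non-coding RNAs, and a group of enzymes binds, edits or cuts double-stranded RNA. All 17, 14 and 12 of these genes passed the filter, and limma called 0 in every comparison. Before adjustment, 0 genes of the 3 lists reached a p under 0.05 and the fold with siSRSF1-2, beside 3.06% of all genes higher and 3.43% lower. With siSRSF1-3 against blank, 1 exosome gene was higher and 1 double-stranded RNA gene lower by that rule (7.57% and 7.24%). With OE-LINC01134 1 double-stranded RNA gene was lower (5%), and between the siRNAs 1 exosome gene was higher and 1 lower (9.01% and 7.42%). Their median log2 fold changes were 0.08, 0.10 and 0.09 with siSRSF1-2, 0.17, 0.11 and -0.47 with siSRSF1-3 and 0.17, 0.21 and -0.03 with OE-LINC01134, beside 0.02, -0.01 and 0.05 over all genes.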

How the data were processed

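RNA-Seq of 12 U2OS libraries was analysed. The authors deposited FPKM per gene and library, with gene length, biotype and coordinates, and no pooled columns. The labels give mouse and mm10, but the identifiers are human Ensembl genes. The aligner, counting program, strandedness and human build are not given in the sources used here, so coordinates are as deposited. The labels name a SMARTer kit and the supplement NEBNext poly-T selection, and the methods place transfection in another osteosarcoma line (HOS). FPKM times length gave whole reads for 100% of values within 0.05 of a read. The FPKM carry size factors, so they scale to 0.712 to 1.09 of a library's own total.

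On log2(FPKM + 0.1), limma 3.58.1 (R 4.3.3) ran lmFit and a trended eBayes on 3 + 3 libraries for each of 17538 genes averaging 0.5 FPKM or more, with Benjamini-Hochberg adjustment over them. The fold understates changes of low genes. A gene was called at an adjusted p under 0.05 and a log2 fold change over 1 in size. Ratios to the partner (both genes at 0.5 or more) were fitted likewise over 887 pairs. An exact permutation test of 3 against 3 cannot go below p = 0.1 and was not used. On simulated data with 200 changed genes (log2 change of 2), the fit called 168 with siSRSF1-2, 104 with siSRSF1-3 and 147 with OE-LINC01134 against blank and 120 between the siRNAs. The simulated libraries were independent, with the same spread of a gene in both groups. Close or outlying replicates, as seen in these data, were not simulated, so the counts may not hold for them.

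Groups came from the sample labels, and columns from their names. Genes named are the 10 highest by mean FPKM, up to 5 called per direction and comparison without overlap, and up to 3 called ratios per direction. Also named are members of 2 lists (HOX cluster antisense RNAs and genes known from cancer), the 5 exceeding their partner most, and the genes at the edge of the ranking. Others were named after their values were seen: DLGAP1-AS1, ENSG00000266401, ENSG00000272183, VIM-AS1, CEBPB-AS1, OTUD6B-AS1, MAFG-DT and the remaining called genes. The set and the lists were chosen with earlier results of these data known. A lineage marker, 1 of the ratios called with OE-LINC01134 and 1 coding partner are not reported here.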

Additional observations from a re-analysis of the deposited data

Results flagged for a closer look

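ENSG00000232533 (chromosome 7, 143379692 to 143380495), among the first 10 by mean FPKM and without an overlapping coding gene, lay on opposite sides of blank with the 2 siRNAs against SRSF1. It was at 33.9, 36.3 and 35.2 FPKM in blank cells, at 26.9, 32.3 and 28.5 with siSRSF1-2 and at 110.04, 74.2 and 39.5 with siSRSF1-3. In FPKM as deposited, every siSRSF1-2 library was below and every siSRSF1-3 library above all blank libraries. This held for 5 of the 200 antisense genes, beside 1.78% of all genes tested. The gene had 619 of 27287959 recovered reads in siSRSF1-2 replicate 2 and 609 of 27959168 in blank replicate 1. Relative to each library's own reads, siSRSF1-2 and blank therefore overlapped. The direct difference of siSRSF1-3 and siSRSF1-2 was 1.23 on the log2 scale (SE 0.37, limma adjusted p = 0.0848), which did not pass the threshold. Groups of 3 libraries were not examined for single outlying values.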

How the results depend on the processing

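With siSRSF1-2 against blank, 14 antisense genes were called. A pseudocount of 1 gave 6 (beside 1.01% of all genes higher and 1.15% lower) and no filter 8 (0.438% and 0.565%). With 1 fit over all 4 groups the count was 4 (0.764% and 1.03%). Averaging close replicates, a setting chosen after the data were seen, gave 0. Leaving out 1 library gave 8 to 19 (1.15% and 1.90% for 8, 3.03% and 3.74% for 19). The 11 ratios of siSRSF1-2 became 6, 2 and 3 with a pseudocount of 1, 1 fit and averaging, and 9 to 18 without 1 library. The median of 0.03 became 0.078 with own read totals, 0.16 with equal sums, 0.093 with averaging, 0.061 ranked over 9 libraries (also chosen after the data were seen) and -0.065 to 0.097 without 1 library, below 0 without blank replicate 1. With siSRSF1-3 against blank, the 3 calls became 8 with a pseudocount of 1 (beside 0.61% of all genes higher and 1.17% lower). They became 0 with a pseudocount of 0.01, with no filter, with equal sums, without the trend or with averaging. A mean of at least 1 FPKM gave 6 (0.573% and 1.297%). With 1 fit the count was 54 (7.099% and 6.711%), and with voom on recovered reads 9 (1.004% and 2.34%). Leaving out 1 library gave 0 to 80 (12.5% and 11.4% for 80). The 0 ratios of siSRSF1-3 against blank became 2 with a pseudocount of 1, 46 with 1 fit and 0 to 72 without 1 library. Its median of 0.46 became 0.20 with own read totals, 0.020 with equal sums and 0.32 to 0.59 without 1 library. With OE-LINC01134 the 0 calls became 2 with equal sums (beside 0.473% of all genes higher and 0.587% lower) and 6 with 1 fit (0.992% and 2.94%). They became 2 with voom (0.576% and 1.41%) and 1 ranked over 9 libraries (0.257% and 0.593%). Leaving out 1 library gave 0 to 17 (2.91% and 5.87% for 17). The 4 ratios of OE-LINC01134 became 2 with a pseudocount of 0.01, without the trend and ranked by mean log2. They became 0 with no filter and with averaging, and 0 to 23 without 1 library. Its median of 0.17 became 0.25 with equal sums and 0.12 to 0.20 without 1 library. For siSRSF1-3 against siSRSF1-2, the 0 calls became 2 with a pseudocount of 1 (beside 0.188% of all genes higher and 0.291% lower). They became 1 with a mean of at least 1 FPKM (0.145% and 0.104%), 54 with 1 fit (8.39% and 7.18%) and 1 with voom (0.319% and 0.308%). Leaving out 1 library gave 0 to 100 (16.01% and 14.5% for 100). The 0 ratios became 49 with 1 fit and 0 to 73 without 1 library. Ratio counts under other settings are given here without the share of all pairs. They therefore do not show whether the pairs of the set differ from all pairs. The median of 0.41 became 0.12 with own read totals, -0.15 with equal sums and 0.29 to 0.55 without 1 library. Over all genes the medians were -0.02 as deposited, -0.31 with own read totals and -0.57 with equal sums. The cause was not tested beyond what each setting changes. In the 4 comparisons, the deviations of same-numbered libraries had correlations from -0.08 to 0.04. Between siSRSF1-3 and OE-LINC01134, which were not compared, they were -0.05, 0.19 and 0.21 for replicates 1 to 3. With 3 libraries in a group, these values cannot decide whether the numbers pair the libraries. With the replicate block, 12, 0, 0 and 0 genes and 10, 0, 5 and 0 ratios were called in the 4 comparisons in this order. The 12 stood beside 1.71% of all genes higher and 2.17% lower. No called gene or ratio changed its direction in any setting. Averaging called 0, 0, 1 and 0 of all 17538 genes in the 4 comparisons, so its counts have no bearing on stability. The median read count per gene and library, 188.5, limits the lowest genes.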

Other observations

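Besides ENSG00000232533, 4 antisense genes lay below blank in every siSRSF1-2 library and above it in every siSRSF1-3 library, in FPKM as deposited. That made 5 of the 200 in all, where 1.78% of all 17538 genes tested did so. PIK3CD-AS2 was at 6.96, 8.09 and 7.10 FPKM in blank cells, 5.90, 5.30 and 5.62 with siSRSF1-2 and 34.0, 19.9 and 9.67 with siSRSF1-3. ENSG00000272669, across from the nuclear envelope gene SUN2, was at 7.85 to 8.46, 6.55 to 6.90 and then 58.7, 23.6 and 10.5. LOC101927765 and ENSG00000262049, head to head with COA6, a gene for cytochrome oxidase assembly, and tail to tail with HGS, a gene of endosomal sorting, were at 31.0, 15.6 and 8.42 and at 22.1, 11.6 and 6.98 FPKM with siSRSF1-3. In all 4 genes siSRSF1-3 replicate 1 was the highest library and replicate 3 the nearest to blank. None of the 4 direct differences, from 1.30 to 1.85 on the log2 scale, passed the threshold (limma adjusted p from 0.0799 to 0.0877).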
